A study of Schizosaccharomyces pombe with 28 samples.

Results

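Transcripts of 19 ribosome biogenesis genes of the fission yeast Schizosaccharomyces pombe were followed across 28 arrays of strains lacking zfs1, cbf12 or both. The genes were all those whose symbol in the array's annotation starts with utp, nop or rrp followed by a number. Single genes thus entered by name and not by measured value, but the family was chosen with earlier results of these data known. They are 19 of the 2899 S. pombe genes with a value, and each had 1 probe set. The annotation of assembly ASM294v3 holds 53 genes with such a symbol, of which 18 were among the members. The other member, SPBC1105.01, is called rrp12 on the array and has no symbol in ASM294v3, so its role is uncertain here.

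Project 582 compared the zfs1cbf12 null mutant (double null), the zfs1 null mutant, the cbf12 null mutant and the wild type (WT), with 3 arrays each. Project 488 compared 3 zfs1 null with 3 WT arrays, and project 529 compared 5 with 5. All strains were kept in rich YES medium at 30 degrees, untreated, and polyA RNA was taken in mid-log growth. The sources used here do not say how the deletions were made, what else each genotype carried or how many clones stood behind a strain. Zfs1 is an RNA-binding zinc finger protein of the tristetraprolin family, whose members bind AU-rich elements and promote mRNA decay. Cbf12 is a DNA-binding protein of the CSL family and has been linked to cell adhesion.

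Ribosomes are assembled in the nucleolus around a long precursor rRNA that RNA polymerase I transcribes. In budding yeast, Utp proteins coat the 5' end of this precursor together with the U3 snoRNA and form the small subunit processome, in which the 18S rRNA is folded and cut out. Nop proteins (nucleolar protein) act in small or large subunit assembly or belong to snoRNPs that modify rRNA. Rrp proteins (rRNA processing) include subunits of the exosome, the complex that trims and degrades RNA from its 3' end. Transcripts of these genes are known to follow growth rate together with those of ribosomal proteins.

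By role the members fell into 6 groups. The UTP-A module, which binds the precursor first, was represented by utp4, utp5, utp10 and utp15, and the UTP-B module by utp13. Other early and small subunit factors were nop9, nop14, utp20, utp23 and the gene listed as rrp12. Large subunit factors were nop12, nop16, nop52 and rrp8, and exosome members were rrp6, rrp41 and rrp46. The H/ACA snoRNP protein nop10 and rrp16 were left unclassed. No UTP-C member and no core protein of the U3 snoRNP was among the genes.

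Signals are MAS5 values on a linear scale, and levels are compared only within a gene. The members read between 358 and 4130 signal units on every array. The background, taken as percentile 95 of probe sets of other species, was 3.65 to 5.44. The 46 probe sets for budding yeast UTP, NOP and RRP genes on the same arrays had a median signal of 1.35, and the highest of their medians was 3.71. The pooled SD between replicates on the log2 scale had a median of 0.11 over the members, with a range of 0.069 (rrp41) to 0.17 (nop52). Over all genes its median was also 0.11. The deletions were visible, with zfs1 at least 87.6-fold lower in the double null than in WT and at least 114-, 81.3- and 87.7-fold lower in the zfs1 null arrays of projects 488, 529 and 582. For cbf12 the signal fell at least 34.5-fold in the double null and 38.1-fold in the cbf12 null strain, both against WT.

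Of the members, 17 overlap another annotated gene in ASM294v3, 5 of them a protein-coding one. The pairs are rrp16 with sap145, rrp46 with ndi1, utp10 with rrp2, utp13 with SPCC16A11.03C and utp23 with trm82. Whether the probe sets tell the 2 strands apart was not tested. No overlap was annotated for nop9 and nop52.

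One array stood apart in these genes. On zfs1 null replicate 3 of project 488, 18 of the 19 members lay above their group mean, with a median deviation of 0.19 on the log2 scale. On replicates 1 and 2 of that group 1 of 19 lay above it. On the other 27 arrays the median deviation lay between -0.10 and 0.069. The members farthest above the mean on that array were nop9 (0.37), nop16 (0.34) and nop12 (0.30), while rrp46 was at -0.004. Of 42 other ribosome biogenesis genes 41 also lay above their group mean there, with a median of 0.21. The median deviation on that array was 0.069 for 119 ribosomal protein genes, -0.16 for 15 core stress genes and -0.011 for all genes. The array was singled out by the values of these same genes, so results given without it follow in part from that choice. Its part in the zfs1 comparisons beyond the values given without it was not tested.

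**Figure D1:**
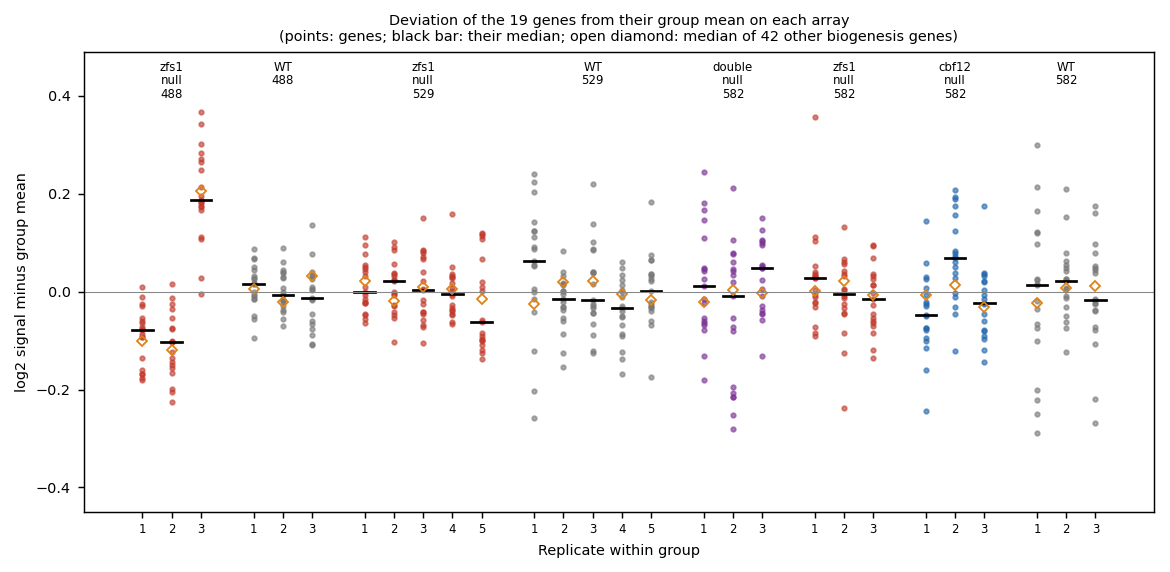
Deviation of the log2 signal from the group mean (vertical axis) of the 19 utp, nop and rrp genes on each array (points; horizontal axis, replicates within each group), with their median (black bar) and the median of 42 other biogenesis genes (open diamond). The points of zfs1 null replicate 3 of project 488 lie above 0 for 18 of 19 genes, and its median is 0.19, while the medians of the other arrays lie between -0.10 and 0.069.

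Loss of Zfs1 was followed by opposite changes of single members. The exosome subunit gene rrp46 rose 1.30-fold and the UTP-A gene utp5 fell 1.25-fold, and both kept their direction in each of the 3 projects. Smaller changes passed the test for nop12 (lower) and for utp15 and nop10 (higher). In all, 3 of 19 members rose and 2 fell in the comparison over 22 arrays with a term for project. Of all genes 23.4 percent rose and 18.3 percent fell in it. The threshold throughout was a limma p below 0.05 after Benjamini-Hochberg adjustment over all 2899 genes. The median log2 change was 0.006 for the members and 0.021 for all genes.

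The rrp46 gene encodes a subunit of the exosome ring. In project 488 its signal was 1409, 1435 and 1416 in zfs1 null cells, against 1162, 1115 and 1052 in WT. In project 529 it was 1422, 1403, 1279, 1257 and 1232 in zfs1 null cells, against 968, 914, 1057, 1030 and 1018 in WT. In project 582 it was 1542, 1624 and 1700 in zfs1 null cells, against 1106, 1295 and 1437 in WT. The lowest zfs1 null array exceeded the highest WT array within every project. The combined log2 change was 0.38 ± 0.04 (SE, limma adjusted p = 2e-08). Within projects 488 and 529 the change passed alone (0.36 ± 0.06, adjusted p = 0.00234, and 0.40 ± 0.05, adjusted p = 3.14e-05), and in project 582 it did not (0.35 ± 0.11, adjusted p = 0.0502). The other exosome members did not pass over the 3 projects. The log2 change of rrp41, a ring subunit like rrp46, was 0.006 ± 0.03, and that of rrp6, the nuclear 3' to 5' exonuclease of the exosome, was -0.008 ± 0.05. Among exosome genes outside the members, the cap subunit csl4 was at 0.032 ± 0.03 and the nuclease dis3 at 0.084 ± 0.07, neither of which passed. The helicase mtr4, a nuclear cofactor of the exosome, rose (0.12 ± 0.04, adjusted p = 0.0137). The neighbour ndi1 that overlaps rrp46 has no value here.

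The utp5 gene encodes a UTP-A protein. Its signal in project 488 was 563, 607 and 729 in zfs1 null cells, against 686, 711 and 804 in WT, and these groups overlapped. In project 529 it was 733, 749, 771, 755 and 677 in zfs1 null cells, against 978, 923, 870, 824 and 898 in WT. In project 582 it was 614, 607 and 634 in zfs1 null cells, against 997, 863 and 738 in WT. The groups did not overlap in projects 529 and 582. The combined log2 change was -0.32 ± 0.05 (limma adjusted p = 2.22e-05). The changes within projects were -0.22 ± 0.10 (adjusted p = 0.154), -0.28 ± 0.05 (adjusted p = 0.000573) and -0.48 ± 0.11 (adjusted p = 0.00906) in projects 488, 529 and 582. No other UTP-A member was called lower in the combined fit, where utp4 (-0.047 ± 0.05) and utp10 (0.094 ± 0.04) did not pass.

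The large subunit factor nop12 fell by 0.16 ± 0.05 on the log2 scale (limma adjusted p = 0.0134), and the projects differed in size. In project 529 its signal was 662, 665, 650, 644 and 620 in zfs1 null cells, against 782, 754, 739, 761 and 733 in WT, with no overlap (log2 change -0.22 ± 0.04, adjusted p = 0.000655). In project 488 it was 471, 424 and 612 in zfs1 null cells, against 634, 568 and 589 in WT, and the replicate at 612 was the array that stood apart. In project 582 it was 646, 686 and 735 in zfs1 null cells, against 629, 697 and 699 in WT, and the groups overlapped throughout. The test of the difference between projects did not pass for nop12 (adjusted p = 0.149), but passed without the array that stood apart (adjusted p = 0.00771). As nop12 was among the genes farthest above their mean on that array, its values without it follow in part from leaving it out. The combined change of nop12 was -0.19 ± 0.05 without it.

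The rises of utp15 and nop10 were small. The UTP-A gene utp15 changed by 0.12 ± 0.04 (limma adjusted p = 0.0222), with 0.20, 0.095 and 0.096 in projects 488, 529 and 582, none of which passed alone. Without the array that stood apart it was at 0.098 in project 488 and 0.096 in the combined fit (adjusted p = 0.0447). Its call was lost with array medians set equal (adjusted p = 0.0736) and without project 582 (0.0527). The snoRNP gene nop10 changed by 0.088 ± 0.03 (adjusted p = 0.0392), with 0.20 (0.15 without that array), 0.060 and 0.021 in the same order. Its signal in project 488 was 3340, 3230 and 3670 in zfs1 null cells, against 2856, 2924 and 3130 in WT. Without the array that stood apart 4 members passed in all, while 676 of all 2899 genes rose and 534 fell. The call of nop10 was lost there (adjusted p = 0.0783). It was lost without 10 of the 22 arrays in turn, that array included, under both other scalings and without the intensity trend. Without the project term the calls of nop12, utp15 and nop10 were lost. The remaining 14 members lay between -0.11 and 0.094 in the combined comparison, and none passed.

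**Figure D2:**
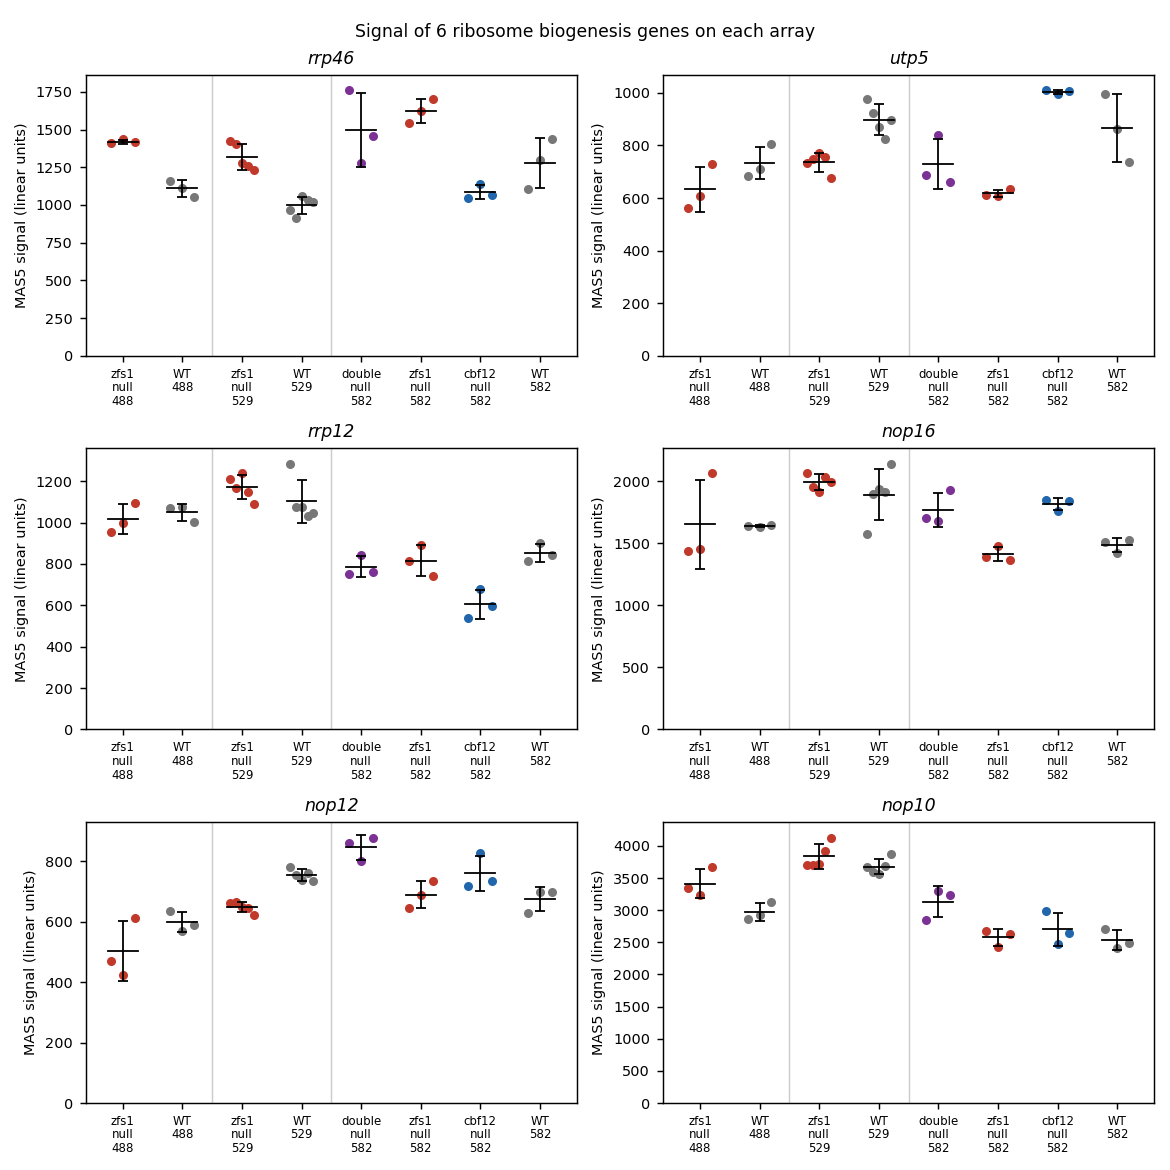
MAS5 signal (vertical axis, linear, starting at 0) of rrp46, utp5, rrp12, nop16, nop12 and nop10 on each array, by strain and project (horizontal axis). Points are arrays, bars are the mean and SD of a group (n = 5 in project 529 and n = 3 elsewhere). The rrp46 points of zfs1 null cells lie above those of WT within each project, and in project 582 the rrp12 points of cbf12 null cells lie below those of the other strains.

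In project 488 alone, 1 of 19 members rose (rrp46) and none fell, against 9.87 percent of all genes higher and 9.80 percent lower. An unadjusted limma p below 0.05 was found for 4 of 19 members and for 1010 of all 2899 genes. The median of the members was -0.026. The count of called members rested on the array that stood apart. Set against the WT mean, the median member was at -0.13, -0.14 and 0.20 on zfs1 null replicates 1, 2 and 3, and 4, 4 and 17 of the 19 members lay above it. Without replicate 3, 8 members passed, rrp46 higher and nop12, nop16, rrp16, utp13, utp20, utp4 and utp5 lower, and the median was -0.11. That replicate was singled out by high values of these same genes, so falls seen without it follow in part from the choice. In that fit 12.9 percent of all genes were higher and 13.3 percent lower. Of the 42 other biogenesis genes, 12 were then lower and none higher, with a median of -0.13, against 1 lower with all arrays. With replicate 3 left out, nop12 was at -0.42 ± 0.08 (limma adjusted p = 0.00284), utp20 at -0.37 ± 0.07 (adjusted p = 0.00271) and utp5 at -0.33 ± 0.08 (adjusted p = 0.0113), and rrp46 stayed at 0.36 ± 0.06 (adjusted p = 0.0011).

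In project 529, 1 member rose (rrp46) and 2 fell (utp5 and nop12), while 25.7 percent of all genes rose and 16.5 percent fell. The median was 0.055 for the members and 0.028 for all genes. Setting array medians equal gave 1 member higher and 4 lower in this project, and turned the split of all genes to 491 higher and 739 lower, against 746 and 477. In project 582 no member rose and utp5 fell, with 4.14 percent of all genes higher and 7.14 percent lower. There, rrp46 was just outside the threshold, and it passed with array medians set equal, under quantile normalization and with an offset. Averaging probe sets left its own values as they were, since each member had 1 probe set. The limma adjusted p of rrp46 was then 0.0499, a change that came only through other genes.

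The effect of zfs1 deletion differed between projects for 1 of 19 members, utp20 (limma F test, adjusted p = 0.00634), while 19.7 percent of all genes passed this test. Utp20 is a large scaffold protein of early small subunit precursors. Its signal in project 488 was 551, 528 and 656 in zfs1 null cells, against 671, 725 and 689 in WT. In project 529 it was 618, 629, 657, 626 and 567 in zfs1 null cells, against 616, 584, 531, 573 and 586 in WT. In project 582 it was 609, 588 and 582 in zfs1 null cells, against 734, 749 and 683 in WT. It lay lower in zfs1 null cells without overlap in projects 488 and 582 (log2 changes of -0.27 ± 0.09 and -0.28 ± 0.11) and overlapped in project 529 (0.10 ± 0.05). None of these passed alone, with adjusted p of 0.0542, 0.099 and 0.142. Under quantile normalization the difference between projects did not pass (adjusted p = 0.0821). The members with the next smallest p were nop12 (adjusted p = 0.149) and nop10 (0.203). Without zfs1 null replicate 3 of project 488 utp20 and nop12 passed (adjusted p = 0.000775 and 0.00771), while nop10 was at 0.457. That array was singled out by high values of these same genes, with utp20 at 0.19 and nop12 at 0.30 above their group mean. The smaller p of both genes without it thus follow in part from leaving it out.

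Loss of Cbf12 in cells with Zfs1 changed 2 members, 1 in each direction. The large subunit factor nop16 rose 1.22-fold, and the gene listed as rrp12 fell 1.42-fold. Of all genes 9.18 percent rose and 18.9 percent fell. The median log2 change was 0.071 for the members and -0.070 for all genes. The WT arrays here also serve the comparison of the double null with WT.

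The nop16 signal was 1852, 1762 and 1842 in cbf12 null cells, against 1511, 1425 and 1526 in WT, and every mutant array exceeded every WT array. Its log2 change was 0.29 ± 0.07 (limma adjusted p = 0.00639). The signal of the gene listed as rrp12 was 539, 679 and 596 in cbf12 null cells, against 814, 902 and 845 in WT, again without overlap. Its log2 change was -0.50 ± 0.10 (adjusted p = 0.00174). Both calls held under all 9 alternative settings and without each of the 12 arrays of project 582. When the WT level was derived with no WT array of project 582, by taking the zfs1 effect seen in projects 488 and 529 off its zfs1 null arrays, nop16 was at 0.41 and rrp12 at -0.39. In that estimate utp5 passed as well, at 0.44 ± 0.11 (adjusted p = 0.00335), which was at 0.22 ± 0.11 and did not pass in the planned fit (adjusted p = 0.134). The estimate takes the zfs1 effect to be the same in all projects.

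The utp15 signal was 1457, 1484 and 1523 in cbf12 null cells, against 1272, 1328 and 1267 in WT. These did not overlap, but the change of 0.21 ± 0.09 did not pass (limma adjusted p = 0.0999). The groups of nop12, rrp16 and utp23 did not overlap either, and these genes did not pass. The share of all genes without overlap was not counted. The 17 members that did not pass lay between -0.23 and 0.22. Scaling mattered for the count. With array medians set equal, which moved the median of all genes by 0.11, and under quantile normalization, 4 members were higher and 1 lower. The split of all genes moved to 434 higher and 272 lower with medians set equal and to 352 and 390 under quantile normalization, against 266 and 549.

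**Figure D3:**
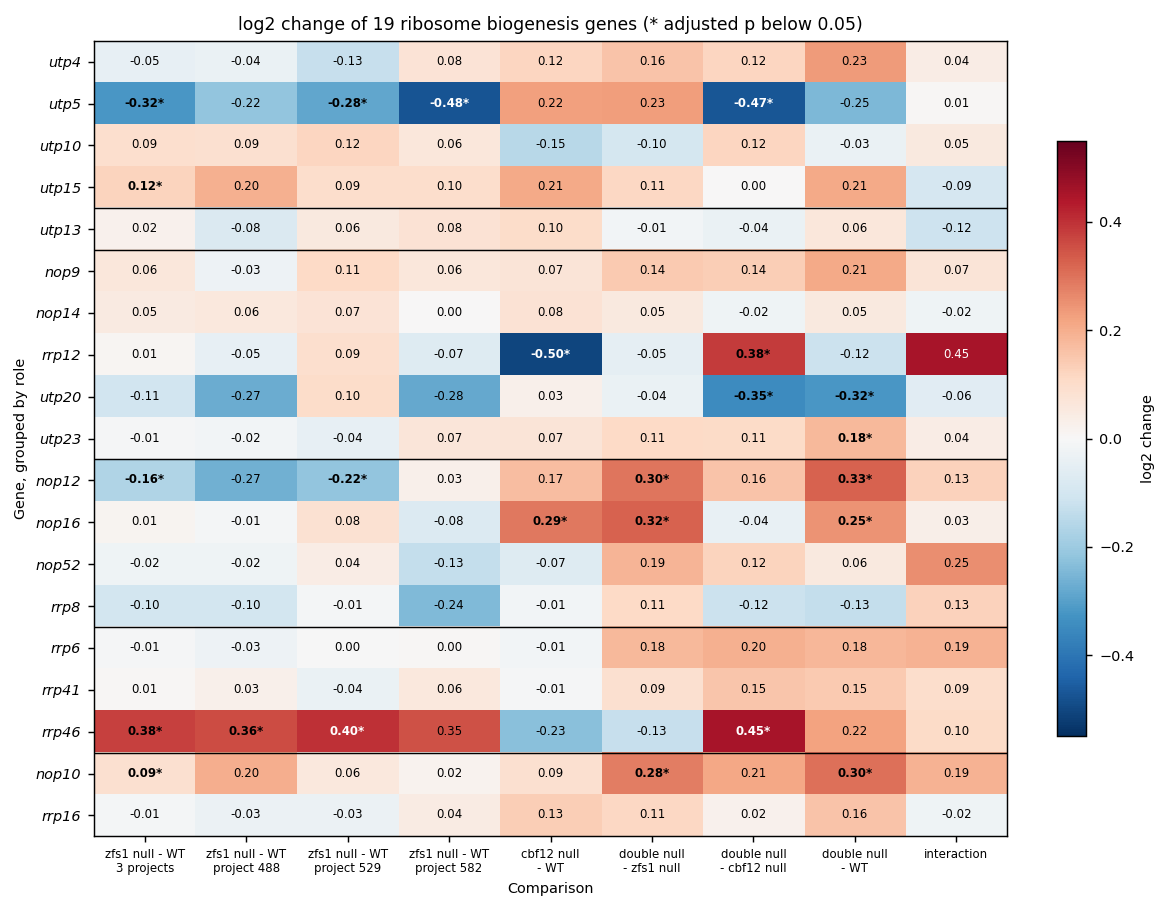
log2 change (colour and printed value) of each of the 19 genes, grouped by role and separated by lines (vertical axis), in each comparison (horizontal axis). Stars and bold type mark a limma adjusted p below 0.05, and rrp46 is positive and utp5 negative in all 4 comparisons of zfs1 null with WT.

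In cells without Zfs1, loss of Cbf12 raised 3 members and lowered none, while 3.24 percent of all genes rose and 5.76 percent fell. The median was 0.11 for the members and -0.033 for all genes. The nop16 signal was 1701, 1679 and 1926 in the double null, against 1389, 1475 and 1367 in the zfs1 null strain, a log2 change of 0.32 ± 0.07 (limma adjusted p = 0.00781). The nop12 signal was 860, 799 and 878 in the double null, against 646, 686 and 735 in the zfs1 null strain (0.30 ± 0.09, adjusted p = 0.0484). The nop10 signal was 2855, 3306 and 3243 in the double null, against 2670, 2429 and 2629 in the zfs1 null strain (0.28 ± 0.08, adjusted p = 0.0429). No array of the double null was as low as the highest zfs1 null array for these 3 genes. The same held for nop9, rrp16, rrp41, rrp6, utp23 and utp5, whose changes did not pass. How many of all genes were separated in this way was not counted, so this is description only.

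Of these calls, nop16 held in all 8 alternative settings and without each of the 12 arrays. The call of nop12 was kept in 5 settings and without 3 of the 12 arrays, and that of nop10 in 4 settings and without 4 arrays. With replicate number as a block, nop12 (adjusted p = 0.0528) and nop10 (0.0584) did not pass. The gene listed as rrp12, which fell in cbf12 null cells with Zfs1, was at -0.050 ± 0.10 in the double null against the zfs1 null strain. Its signal was 753, 844 and 761 in the double null, 815, 891 and 740 in the zfs1 null strain, and these groups overlapped.

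Loss of Zfs1 in cells without Cbf12 raised 2 members and lowered 2, with 18.8 percent of all genes higher and 15.0 percent lower. The median was 0.12 for the members and 0.063 for all genes. The rrp46 signal was 1759, 1278 and 1455 in the double null, against 1049, 1139 and 1066 in the cbf12 null strain, a log2 change of 0.45 ± 0.11 (limma adjusted p = 0.00529). The utp5 signal was 687, 839 and 662 in the double null, against 1009, 996 and 1005 in the cbf12 null strain (-0.47 ± 0.11, adjusted p = 0.00416). Both genes thus changed in the direction they had in cells with Cbf12. The gene listed as rrp12 rose by 0.38 ± 0.10 (adjusted p = 0.00877), and this call was lost without cbf12 null replicate 1 (the highest adjusted p over all alternatives was 0.0542). Its fall on cbf12 deletion and its interaction use the same cbf12 null arrays, so these results are not independent. In the double null against WT this gene was at -0.12 ± 0.10 and did not pass. The utp20 signal was 596, 505 and 642 in the double null, against 678, 848 and 690 in the cbf12 null strain (-0.35 ± 0.11, adjusted p = 0.0218). That call was lost without cbf12 null replicate 2, without double null replicate 2 and when only these groups were fitted (adjusted p = 0.0622).

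The double null differed from WT in 5 members, 4 higher and 1 lower, while 15.5 percent of all genes rose and 19.7 percent fell. The median was 0.16 for the members and -0.045 for all genes, and 14 of the 19 members were above 0. The nop12 signal was 860, 799 and 878 in the double null, against 629, 697 and 699 in WT (0.33 ± 0.09, limma adjusted p = 0.0113). The nop10 signal was 2855, 3306 and 3243 in the double null, against 2712, 2409 and 2497 in WT (0.30 ± 0.08, adjusted p = 0.011). The nop16 signal was 1701, 1679 and 1926 in the double null, against 1511, 1425 and 1526 in WT (0.25 ± 0.07, adjusted p = 0.0135). These 3 genes, 2 large subunit factors and an H/ACA protein, were higher on every double null array than on any WT array.

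The small subunit factor utp23 was the fourth member to rise, with 1868, 1987 and 2028 in the double null, against 1751, 1760 and 1689 in WT (0.18 ± 0.06, adjusted p = 0.0328). The utp20 signal was 596, 505 and 642 in the double null, against 734, 749 and 683 in WT (-0.32 ± 0.11, adjusted p = 0.030). In budding yeast, Utp23 takes part in the cleavages that release the 18S rRNA, as Utp20 does. Both differed without overlap of the groups, and so did rrp16, which did not pass (0.16 ± 0.06, limma adjusted p = 0.0591). Non-overlap was not counted over all genes here either. When the WT level was derived with no WT array of project 582, as described for the cbf12 null strain, nop12 was at 0.061 (adjusted p = 0.704), utp20 at -0.075 and utp23 at 0.078, and none of the 3 passed. That level takes the zfs1 effect to be the same in all projects, and that effect differed between projects for utp20. The value of utp20 there thus follows in part from the construction of the level. So does that of nop12, whose zfs1 changes were -0.27, -0.22 and 0.03 in projects 488, 529 and 582. The calls of nop10 and nop16 held there, at 0.39 (adjusted p = 0.000948) and 0.37 (adjusted p = 0.0193), and rrp46 passed at 0.26 (adjusted p = 0.0489).

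The count of members in this comparison moved with scaling and with single arrays. With array medians set equal 11 members were higher and none lower, and all genes split into 659 higher and 383 lower, against 448 and 570. Under quantile normalization 3 members were higher and none lower, and all genes split into 310 higher and 291 lower. Without WT replicate 2, 1 member passed, and without double null replicate 3, 3 did. Counts of all genes without these arrays are not given here, so a shift shared with other genes cannot be told apart. The call of nop10 was lost under quantile normalization and without WT replicate 2. That of nop16 was lost with only these groups fitted and without WT replicate 2 or double null replicate 3. Of 9 settings and 12 left-out arrays, nop12 kept its call in 8 and 12, utp23 in 6 and 8, and utp20 in 5 and 9.

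In the planned fit no member passed the test of the interaction, which asks whether the effect of both deletions differs from the sum of the single ones, and 4.38 percent of all genes were higher and 5.38 percent lower in it. In limma 1 member had an unadjusted p below 0.05, as did 675 of all 2899 genes. That member was the gene listed as rrp12, at 0.45 ± 0.14 (adjusted p = 0.0557). It passed with replicate number as a block (0.45 ± 0.12, adjusted p = 0.0246), under quantile normalization (0.48 ± 0.15, adjusted p = 0.0467) and without cbf12 null replicate 2 (0.54 ± 0.14, adjusted p = 0.0288). The next were rrp6 (0.19 ± 0.11, adjusted p = 0.307) and nop10 (0.19 ± 0.12, adjusted p = 0.34). The median of the members was 0.054 and that of all genes 0.047. For nop16, with rises on cbf12 deletion in both backgrounds, the interaction was 0.034 ± 0.10 (adjusted p = 0.874). The median SE of a member was 0.14 here, against 0.10 in the single comparisons of project 582. With the WT level derived from the zfs1 null arrays, 2 members were higher, the gene listed as rrp12 (0.34 ± 0.10, adjusted p = 0.0188) and nop12 (0.39 ± 0.11, adjusted p = 0.00863). The count of all genes in that fit is not given here. The value of nop12 again follows in part from the construction of that level, which takes the zfs1 effect to be the same in all projects.

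**Figure D4:**
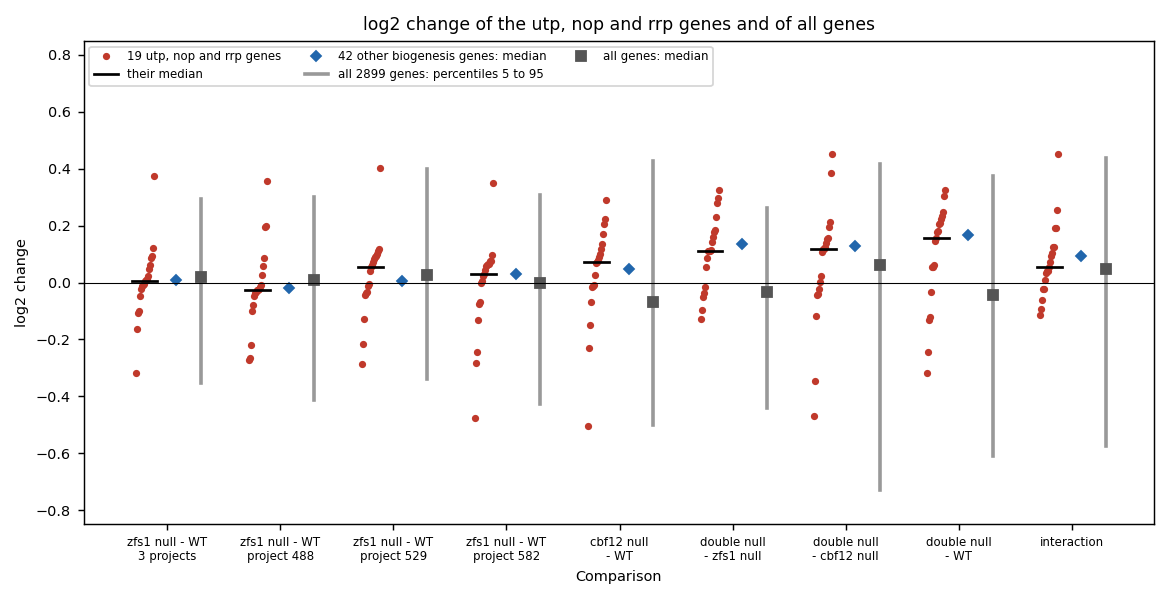
log2 change (vertical axis) of the 19 utp, nop and rrp genes (points, sorted, with their median as a bar), the median of 42 other biogenesis genes (diamond), and the median (square) and percentiles 5 to 95 (line) of all 2899 genes in each comparison (horizontal axis). The members' median is 0.11, 0.12 and 0.16 in the comparisons of the double null with the zfs1 null, cbf12 null and WT strains, where that of all genes is -0.033, 0.063 and -0.045.

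Other genes of ribosome production were counted in the same comparisons, as descriptions without a test of the list. Of 42 other ribosome biogenesis genes, 4 rose and 3 fell on zfs1 deletion over the projects, with a median of 0.010. Without zfs1 null replicate 3 of project 488, 4 rose and 10 fell, with a median of -0.019. On cbf12 deletion in cells with Zfs1 4 rose and 1 fell (median 0.048). In the double null 7 rose and none fell against the zfs1 null strain (0.13), 9 rose and 1 fell against the cbf12 null strain (0.13), and 13 rose and none fell against WT (0.17). Of the 3 listed genes whose proteins join nop10 in the H/ACA snoRNP, 1 passed in the double null against WT. The pseudouridine synthase gene cbf5 rose by 0.40 ± 0.07 (limma adjusted p = 0.000769). The log2 changes of nhp2 (0.20 ± 0.09, adjusted p = 0.114) and gar1 (0.23 ± 0.11, adjusted p = 0.126) did not pass.

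Of 13 genes of RNA polymerase I and its factors, 3 rose on zfs1 deletion over the projects and none fell (median 0.061, and 0.028 with the same counts without that array). In the double null against WT 4 rose and 1 fell (median 0.012), and on cbf12 deletion 1 rose and 3 fell (-0.012). Of 119 cytoplasmic ribosomal protein genes, 105 rose and none fell in the double null against WT, with a median of 0.34. They counted 62 higher against the cbf12 null strain (0.24), 7 higher against the zfs1 null strain (0.19), 1 higher in the cbf12 null strain (0.097) and 39 higher on zfs1 deletion over the projects (0.078), with none lower in any of these. Without zfs1 null replicate 3 of project 488 the last count was 24 (0.064). In project 529 alone the list had 3 higher and 12 lower and a median of -0.029, beside medians of 0.18 in project 488 and 0.17 in project 582. The zfs1 effect differed between projects for 58 of the 119 genes. Of 15 core stress genes, 12 fell on zfs1 deletion over the projects, with and without that array, and 12 rose and 1 fell on cbf12 deletion. Against WT, 4 rose and 4 fell in the double null. The part of these shifts in the members' changes was not tested.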

How the data were processed

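PolyA RNA was amplified and labelled with biotin before hybridisation, per the labels' protocols, which can distort differences between transcripts. Deposited values are intensities, 1 linear MAS5 signal for each probe set of an array, per the submitters' processing notes. The sources used here do not state its version or scaling settings, nor the array's build. With 2 percent of probe sets trimmed from each end, the mean was 500.1 to 500.2 on all 28 arrays, so a change shared by most transcripts is not visible. Of 10928 probe sets, 2917 named 1 S. pombe gene. The brightest per gene was kept, leaving 2899 genes. Symbols were updated through the RefSeq annotation of ASM294v3.

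Models were fitted to log2 signals of all 2899 genes by limma 3.58.1 (R 4.3.3) using eBayes and a trend of the prior variance on intensity. Tests were two-sided, and a gene was called at a Benjamini-Hochberg adjusted p below 0.05. The zfs1 null comparison over 3 projects had a project term and was repeated within each project. Project 582 was fitted with its 4 strains together. The design text calls the samples biological replicates, and nothing used here says that each came from its own culture, so p-values measure the spread between these samples. Precision is limited by the number of arrays. How many of all genes had groups without overlap was not counted, so non-overlap is given as description only. The script was tested on simulated data.

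The members, role classes and comparison lists were chosen with earlier results of these data known. The text names the 5 largest called rises and falls of the main comparisons (the 3 smallest p where fewer than 3 passed), the 3 smallest p for the interaction and for the difference between projects, and the brightest member of each role. Others named singly were chosen after their values were seen. Alternatives were 2 other scalings, an offset of 16, averaged probe sets, a filter on dim genes, no intensity trend, a replicate block, other sets of arrays, an estimated WT level and leaving out each array.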

Additional observations from a re-analysis of the deposited data

Results flagged for a closer look

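In WT of project 529 single arrays lay far from the other 4 for 2 genes. The gap to the nearest array was 0.81 of the group's range for the gene listed as rrp12 on replicate 1 (1283, against 1032 to 1075 on the others) and 0.785 for utp23 on replicate 3 (2097, against 1828 to 1883). Chance alone marks about 1 in 20 groups in this way.

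The zfs1 effect on utp20 differed between projects (limma adjusted p = 0.00634), with log2 changes of -0.27, 0.10 and -0.28 in projects 488, 529 and 582. For nop16 every zfs1 null array lay above the WT mean in project 529 and below it in project 582, and the effects differed by 0.16 on the log2 scale. Over the 3 projects the test of a difference did not pass for nop16 (adjusted p = 0.583).

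The arrays also carry 7 rRNA control probe sets for S. pombe, outside the gene table. For 6 of them each of the 9 mutant arrays of project 582 lay above each of the 3 WT arrays, and for the middle set of the 28S rRNA the ranges overlapped. The mean over the 9 mutant arrays was 5768, 5955 and 6171 signal units for the 3', 5' and middle sets of the 18S rRNA, 5210 and 4954 for the 3' and 5' sets of the 28S rRNA, and 3867 for the 5.8S rRNA. In WT the highest values were 4860, 4998, 5249, 4192, 4105 and 3393 in the same order. The RNA was polyA selected. In project 529 the zfs1 null means lay below WT for all 7 sets, for example 5355 ± 221 in zfs1 null cells against 5771 ± 343 in WT (SD, n = 5 each) for the 3' set of the 28S rRNA. In project 488 they lay above WT for all 7, with 5197 ± 297 in zfs1 null cells against 4627 ± 329 in WT (SD, n = 3 each) for that set. Their part in the members' values was not tested.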

How the results depend on the processing

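Among the named calls, rrp46 and utp5 in the combined zfs1 comparison kept direction and call under all 9 alternatives and without each of the 22 arrays, with ranges of 0.35 to 0.40 and -0.35 to -0.26. No named call changed sign under any alternative run. The filter on dim genes left 2897 genes and all 19 members. Without a project term 2 members passed in the combined comparison, against 5. With array medians set equal 5 passed in project 529, 2 in project 582, 5 on cbf12 deletion and 11 in the double null against WT, against 3, 1, 2 and 5. Under quantile normalization 2 passed in project 582, 5 on cbf12 deletion, 3 in the double null against WT, 1 in the interaction and 0 for the difference between projects, where limma had 1. In project 582 the count was 2 with an offset of 16 or averaged probe sets. With only the compared groups fitted it was 3 there, 1 for the double null against the zfs1 null strain and 2 for the double null against WT. With the estimated WT level it was 3 for cbf12 deletion (against 2), 3 for the double null against WT and 2 for the interaction.

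With the replicate block the count was 2 in project 488, 1 for the double null against the zfs1 null strain and 1 for the interaction. Same-numbered samples correlated between -0.06 and 0.16 in project 488, -0.05 and 0.14 in project 529, and -0.30 and 0.31 in project 582, so the numbers were not taken to pair samples. Besides nop12 and nop10 in the double null against the zfs1 null strain, the block lost none of the named calls. It added nop10 in project 488 (adjusted p = 0.0177) and the gene listed as rrp12 in the interaction.

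Leaving out single arrays gave 4 to 6 members in the combined comparison, 1 to 8 in project 488, 3 to 5 in project 529, 1 to 3 in project 582, 2 to 4 on cbf12 deletion, 1 to 3 for the double null against zfs1 null, 3 to 6 against cbf12 null and 1 to 7 against WT, 0 to 1 for the interaction and 1 to 2 for the difference between projects. The count was 8 in project 488 without zfs1 null replicate 3 (2 without zfs1 null replicate 2 or WT replicate 3). It was 5 in project 529 without WT replicate 1. In project 582 it was 3 without double null replicate 2, and 2 without double null replicate 1 or WT replicate 3. For cbf12 deletion it was 4 without WT replicate 1. For the double null against zfs1 null it was 1 without double null replicate 3, any zfs1 null replicate, cbf12 null replicate 3 or WT replicate 2 or 3. For the interaction it was 1 without cbf12 null replicate 2. For the difference between projects it was 2 without zfs1 null replicate 3 of project 488. Setting array medians equal turned the all-gene split for the double null against zfs1 null to 136 higher and 108 lower (106 and 87 under quantile normalization, against 94 and 167). For the interaction it became 99 and 186, against 127 and 156, and quantile normalization gave 171 and 188 in project 582, against 120 and 207. The cause of these shifts was not tested. Where this section gives no count of all genes beside a member count, it does not show whether the members moved apart from other genes.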

Other observations

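The members' levels in WT also differed between projects, where the pooled SD between replicates had a median of 0.11. The log2 difference of WT in project 582 minus WT in project 529 was -0.54 for nop10, 0.51 for nop14, -0.37 for the gene listed as rrp12 and 0.35 for rrp46, and it lay between those of nop10 and nop14 for all 19 members. Each project held its own WT arrays, so comparisons within a project do not use these differences. The differences were not tested.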
